A study of Caenorhabditis elegans with 2 samples.

Results

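Chaperone and heat shock genes of Caenorhabditis elegans were examined for promoter peaks of F37B4.10 tagged with GFP, by chromatin immunoprecipitation followed by sequencing (ChIP-seq) of whole young adults. The genes were chosen by name from the Ensembl annotation of WBcel235, whose sequence is that of ce11. Every protein-coding gene whose symbol starts with hsp-, dnj-, cct- or pfd- was taken, with hsp-90 (also called daf-21), which gave 65 of 19973 nuclear protein-coding genes. The strain, OP374, carries the integrated transgene wgIs374, in which F37B4.10 is joined to TY1, EGFP and 3xFLAG tags, together with a working unc-119 copy in the unc-119(tm4063) mutant background. Worms were synchronized as starved L1 larvae after bleaching and collected 61 h old, and the labels name no heat or other stress treatment. The study holds 1 group of 2 biological replicates, with no group of other genotype or stress to compare, so the values below are descriptions and carry no test. Material from whole animals cannot tell in which cells a promoter was occupied. The sample description names an antibody against GFP, whereas the antibody field names F37B4.10 itself.

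Chaperones hold other proteins in foldable form. HSP70 proteins bind and release unfolded stretches with the help of J-domain proteins, HSP90 acts on late folding steps of its clients, the chaperonins CCT (cytosol) and HSP60 (mitochondria) enclose folding proteins, prefoldin delivers new chains to CCT, and small heat shock proteins hold unfolded proteins until they can be refolded. In worms many of these genes are expressed at all times, whereas the hsp-16 genes and hsp-70 are barely expressed until heat shock factor HSF-1 turns them on through heat shock elements, repeats of GAA and its reverse complement TTC spaced by 2 bases.

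For each gene, the strongest row of the authors' ranked list made from both replicates was taken among those with a summit from 1000 bp upstream to 200 bp downstream of an annotated start. The row's signal is the authors' value per candidate peak, on a scale that is not stated. A gene was counted as called when its window held the summit of a peak of the authors' conservative list. That list keeps candidates by their irreproducible discovery rate (IDR), which is low where a peak ranks high in both replicates alike. The ranked list holds 115634 rows with a median signal of 23.6, and the conservative list holds 843 peaks with a median of 75.3. A place among genes is given as a percentile of all protein-coding genes ordered by strongest promoter signal, where genes with no row share the lowest place. At the native F37B4.10 gene the promoter window held a conservative peak, and 14 such peaks lay within 20000 bp of the gene. Where the tagged transgene is inserted is not given. The nearest chaperone gene lay 1000229 bp away.

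Of the 65 chaperone genes, 6 were called (9.23%), beside 347 of all 19973 protein-coding genes (1.74%). They were hsp-60 (the mitochondrial chaperonin), hsp-3 (an endoplasmic reticulum HSP70 of the BiP type), dnj-28 (a J-domain protein), cct-7 (a subunit of the cytosolic chaperonin), hsp-90 (cytosolic HSP90) and dnj-13 (a J-domain protein of the DNAJB1 type). Each large compartment of protein folding therefore held 1 or more called genes. No gene was called among hsp-16 with hsp-70 (7 genes), prefoldin (6) and the other small heat shock proteins (7). With 1.74% of all genes called, the lack of a call in classes this small does not set them apart. The authors' other joint list called the same 6 genes, beside 1.89% of all genes. Which genes counted as called depended on the rule that ties peaks to genes. With the nearest coding start within 1000 bp of each summit, hsp-60, cct-7 and hsp-90 were no longer called and cct-3 and dnj-20 were, whereas hsp-3, dnj-13 and dnj-28 stayed. That rule called 5 chaperone genes, beside 1.92% of all genes. The window of 500 bp upstream to 100 bp downstream lost hsp-60, which left 5, beside 1.02% of all genes. A single, most upstream start per gene lost hsp-90, which left 5, beside 1.51%. At a looser limit, an IDR of at most 0.05 in the ranked list, 12 chaperone genes passed (18.5%), beside 6.71% of all genes, the added ones being dnj-9, dnj-10, dnj-19, dnj-2, pfd-4 and hsp-25.

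The summit with 50 bases to each side is shown for 5 of the called genes, read from ce11 on the strand of the gene. Each is the summit of the strongest row of its promoter. The called gene left out, dnj-28, had a higher signal (95.4) than cct-7, hsp-90 and dnj-13. Capitals mark CCAAT or its reverse complement ATTGG, and pairs of heat shock units, GAANNTTC or TTCNNGAA.
hsp-60, chrIII:1619067-1619167, plus strand: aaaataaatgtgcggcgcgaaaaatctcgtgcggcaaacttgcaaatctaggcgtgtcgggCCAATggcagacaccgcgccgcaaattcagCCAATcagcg
hsp-3, chrX:6092092-6092192, minus strand: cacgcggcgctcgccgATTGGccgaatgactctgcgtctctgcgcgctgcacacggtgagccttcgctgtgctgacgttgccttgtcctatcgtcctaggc
cct-7, chrV:1871855-1871955, plus strand: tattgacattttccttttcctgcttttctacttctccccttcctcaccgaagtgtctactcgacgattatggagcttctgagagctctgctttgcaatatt
hsp-90, chrV:14685705-14685805, plus strand: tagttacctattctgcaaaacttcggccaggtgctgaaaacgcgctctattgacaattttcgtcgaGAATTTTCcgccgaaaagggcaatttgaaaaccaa
dnj-13, chrII:11545434-11545534, plus strand: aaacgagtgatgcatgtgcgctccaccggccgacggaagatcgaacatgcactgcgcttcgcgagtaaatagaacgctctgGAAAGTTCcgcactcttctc
The stretch at hsp-60 holds 2 copies of CCAAT and that at hsp-3 holds 1, those at hsp-90 and dnj-13 hold 1 heat shock pair each, and that at cct-7 holds neither. The stretch at dnj-28, which is not printed, holds neither as well. CCAAT was searched for after these sequences had been seen.

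The peak at hsp-60 (WBGene00002025) had the highest signal of all chaperone genes. Its joint signal was 139.5, rank 65 of the ranked list, with 69.8 in replicate 1 and 71.0 in replicate 2. The replicates were closer at this row than at the other 5 called rows, and hsp-60 was the 1 chaperone gene in the thresholded list of replicate 1 and 1 of 2 in that of replicate 2. The peak spans chrIII:1618979-1619254 with its summit 625 bp upstream of the nearest hsp-60 start, in no annotated gene. The same summit lies 188 bp upstream of Y22D7AL.10, which runs the other way and is annotated by RefSeq as the 10 kDa mitochondrial heat shock protein, the partner that closes the HSP60 chamber in mitochondria. A single peak thus lay between the genes of both parts of the mitochondrial chaperonin.

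At hsp-3 (WBGene00002007) the joint signal was 115.1, with 47.0 in replicate 1 and 66.2 in replicate 2, and the gene was called in the thresholded list of replicate 2. Of the 6 called genes, it was the 1 whose peak lay in no other coding promoter. The summit of the peak, chrX:6092004-6092279, lies 18 bp upstream of the most distal of 3 annotated hsp-3 starts and 1671 bp upstream of the most proximal. With 64.4% GC within 50 bp of the summit it had the highest GC content of any chaperone row.

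At dnj-28 (WBGene00001046) the joint signal was 95.4, with 37.7 in replicate 1 and 57.4 in replicate 2. The summit lies 114 bp upstream of dnj-28 and 460 bp upstream of supr-1, on the other strand. At cct-7 (WBGene00020391) the joint signal was 88.3, with 41.6 in replicate 1 and 50.5 in replicate 2. Its peak, chrV:1871767-1872042, lies 341 bp upstream of the nearest cct-7 start and 98 bp upstream of T10B5.4, annotated as an aralkylamine N-acetyltransferase. At both genes replicate 2 was the higher, as it was at hsp-3.

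The lowest of the called signals were those of hsp-90 and dnj-13. At hsp-90 (WBGene00000915) the joint signal was 69.97, with 43.95 in replicate 1 and 32.8 in replicate 2, the 1 called gene at which replicate 1 was the higher. The summit of its peak, chrV:14685617-14685892, lies within the gene as annotated, 837 bp downstream of 1 hsp-90 start and 405 bp upstream of the other, and 270 bp upstream of C47E8.4, a FAM50 homolog on the other strand. At dnj-13 (WBGene00001031) the joint signal was 64.2, with 29.3 in replicate 1 and 39.3 in replicate 2. Its peak, chrII:11545346-11545621, lies 217 bp upstream of dnj-13 and 656 bp upstream of F54D5.9, an F-box gene, inside an exon of the noncoding RNA gene F54D5.22 and within the span of dhgd-1.

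The limit of the conservative list fell between genes of almost the same signal. Just inside it was dnj-13 at an IDR of 0.00839, and just outside was dnj-9, a J-domain gene with a slightly higher joint signal of 64.5 and an IDR of 0.0158. Next came dnj-19, a class A J-domain gene, with 59.1 and an IDR of 0.0251, and dnj-10, a mitochondrial J-domain gene, with 60.8 and an IDR of 0.0290.

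**Figure D1:**
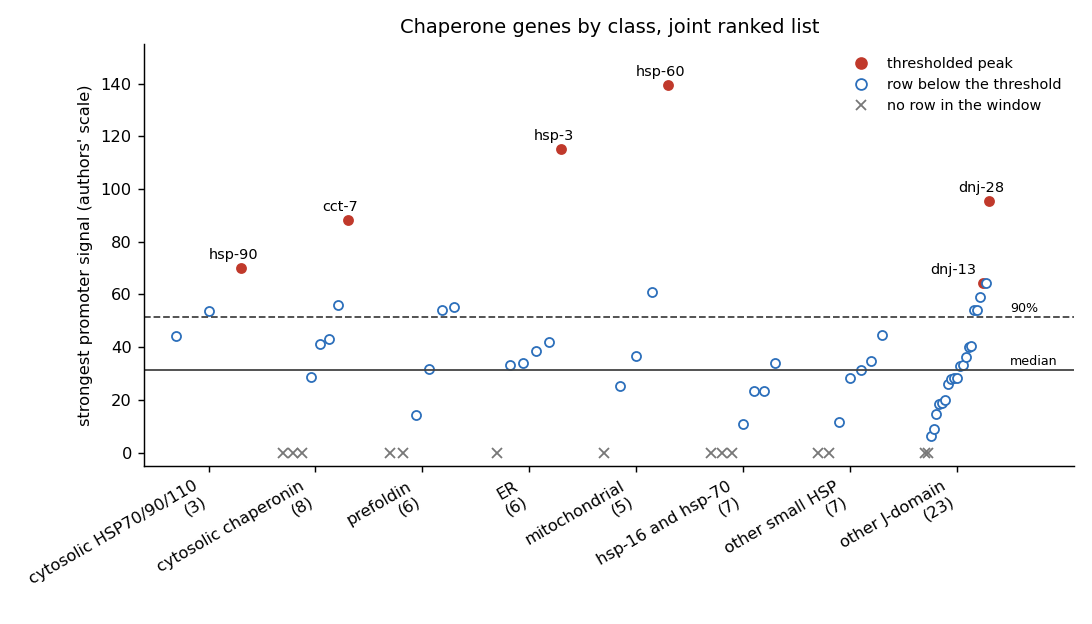
Strongest promoter signal (authors' scale) of each of the 65 chaperone genes by class, with the number of genes in brackets; filled red points are called genes, open blue points have a row below the threshold and crosses have no row. The solid line is the median over all protein-coding genes with a row (31.3) and the dashed line their 90th percentile (51.4); the hsp-16 and hsp-70 class tops out at 33.9.

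A row in the window was found for 51 chaperone genes (78.5%), beside 81.8% of all genes, so the presence of a row did not set the chaperone genes apart. Their strongest signals had a median of 34.6 and ran from 6.17 at dnj-23 to 139.5 at hsp-60, whereas all genes with a row had a median of 31.3. The difference was larger in the upper part: the upper quartile was 54.0 for chaperone genes and 41.1 for all genes. Of the 65, 15 (23.1%) stood above the 90th percentile of all genes, and the median chaperone gene stood at percentile 59.4. With a window of 500 bp upstream to 100 bp downstream, that median was 47.1, below the middle of all genes, so the place of the typical chaperone gene depended on the window. In the replicates' own lists, 13 chaperone genes stood above the 90th percentile in replicate 1 and 16 in replicate 2.

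Among cytosolic folding machines, the 3 genes of HSP70, HSP90 and HSP110 all stood high in the joint list, but not all in each replicate. Besides hsp-90, hsp-1, the main HSP70 of the worm cytosol, had a joint signal of 53.9, with 18.3 in replicate 1 and 38.8 in replicate 2. hsp-110, a nucleotide exchange factor for HSP70, had 44.4, at a summit in coding sequence of rpn-3. The row of hsp-110 had 25.6 in replicate 1 and 15.7 in replicate 2. The replicates ordered these 2 genes differently, hsp-1 being the higher in replicate 2 and hsp-110 in replicate 1. By percentile in the lists of replicates 1 and 2, hsp-1 stood at 72.4 and 97.5 and hsp-110 at 90.8 and 52.0. For hsp-90 the places were 99.5 and 93.5. The median percentile of the 3 genes was 93.6, and 90.8 and 93.5 in the lists of replicates 1 and 2.

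The chaperonin CCT is built of 8 different subunits, cct-1 to cct-8, and their promoters were unlike each other. Behind cct-7 came cct-8 with a joint signal of 55.8, but its replicates differed most among the 24 genes of highest signal, with 12.6 in replicate 1 and 50.03 in replicate 2. cct-1 had 43.2, with a row in replicate 2 (16.4) and none in replicate 1, cct-4 had 41.03, with 19.5 and 25.9, and cct-2 had 28.8, with a row in replicate 2 (22.4). The other 3 subunits, cct-3, cct-5 and cct-6, had no row in the window. For these the nearest summit lay only 108, 77 and 78 bp outside it, with signals of 74.1, 51.2 and 27.6, and the one at cct-3 was a conservative peak 308 bp downstream of its start. The median percentile of the 8 subunits was 66.2 in the joint list and 73.9 in that of replicate 2, but 22.3, the place of genes with no row, in that of replicate 1, where 5 subunits had none.

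Prefoldin, a hexamer of different subunits, had no called gene among 6, beside 1.74% of all genes. pfd-1 had a joint signal of 55.4 (17.3 in replicate 1 and 35.6 in replicate 2) and shared its row with F01G4.6, a mitochondrial phosphate carrier. pfd-4 had 54.0, with 21.7 and 33.9, at a row shared with the J-domain gene dnj-2, whose summit lies in coding sequence of B0035.3. pfd-3 and pfd-2 followed with 31.5 and 14.2, both with a row in replicate 1 only, and pfd-5 and pfd-6 had none in the joint list. The class therefore held 2 genes above the 90th percentile of all genes and 3 below the middle, with a median percentile of 42.2. That median was 60.01 in the list of replicate 1 and 20.4 in that of replicate 2, and 18.8 with the window of 500 bp upstream to 100 bp downstream, so it did not hold across replicates or windows.

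In the endoplasmic reticulum, where BiP proteins fold secreted proteins, hsp-3 stood apart from its paralog hsp-4. hsp-4, the BiP gene known for its induction when unfolded proteins build up there, had a joint signal of 42.0 and was not called. Its strongest row lay 711 bp upstream of the nearest start, with 28.5 in replicate 2 and no overlapping row in replicate 1. The J-domain partners of BiP were lower: dnj-20 (DNAJB11 type) had 38.4, dnj-27 (ERdj5 type) 33.8 and dnj-29 (SEC63 type) 33.1, and dnj-7 (P58IPK type) had no row in any of the lists used. At dnj-20 2 conservative peaks lay inside the gene instead, with signals of 63.4 and 71.8. They lay 539 and 1030 bp downstream of the proximal of its 2 annotated starts, whereas the row of 38.4 lay 906 bp upstream of the distal one. The row of dnj-27 had its summit in coding sequence of dnj-27 itself. It lay 136 bp downstream of an internal start and 7365 bp downstream of the distal start. The class median was percentile 69.99, and 79.6 and 74.5 in replicates 1 and 2.

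Of the 5 mitochondrial chaperone genes, 2 stood above the 90th percentile of all genes, hsp-60 and dnj-10, and the others had lower signals or no row. After hsp-60 came dnj-10 (DNAJA3 type) with a joint signal of 60.8, 21.6 in replicate 1 and 40.7 in replicate 2. hsp-6, the mitochondrial HSP70 and a widely used reporter of mitochondrial stress, had 36.6 in the joint list and no overlapping row in the list of either replicate. hsp-75, the TRAP1 gene, had 25.2, with 17.5 in replicate 2, at the far edge of the window 998 bp upstream, and dnj-21, a gene of mitochondrial protein import, had no row. The class median was percentile 71.3 in the joint list, but 22.3 and 57.5 in replicates 1 and 2, so it rested on few genes.

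The hsp-16 genes and hsp-70, as taken by symbol, were the lowest class in the joint list. They shared the lowest median with prefoldin in the window of 500 bp upstream to 100 bp downstream (18.8) and in the list of replicate 2 (20.4). In the list of replicate 1 they shared it (22.3) with the cytosolic chaperonin, the mitochondrial class and the other small heat shock proteins. Related genes with other symbols, F44E5.4, F44E5.5 and hsp-16.20, had called peaks and are described further on. hsp-70 had a joint signal of 33.9, with 17.7 in replicate 2 and no row in replicate 1, at a summit 173 bp downstream of its start, in sequence that the annotation gives to both hsp-70 and uggt-2. hsp-16.2 and hsp-16.41, which are transcribed away from each other, shared 1 row of 23.4, with 19.7 in replicate 1 and none in replicate 2. hsp-16.11 had 10.7, with no row in either replicate. hsp-16.1, hsp-16.48 and hsp-16.49 had no joint row, and of these hsp-16.1 had a row of 13.1 in replicate 2. The median of the 7 genes was percentile 21.3, and the highest, hsp-70, stood at 65.5. In the lists of replicates 1 and 2 the median was the place of genes with no row, 22.3 and 20.4.

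The promoters of 4 of these genes, hsp-16.11 with its low row and the 3 with no joint row, are mostly repeated sequence. The share of 36-base stretches of the promoter that occur more than once in the genome was 96.5% at hsp-16.1, 93.2% at hsp-16.11 and 100% at hsp-16.48 and hsp-16.49, against 1.16% at hsp-16.2, 1.29% at hsp-16.41 and 0% at hsp-70. Reads from such stretches cannot be given to 1 place, and neither the read length nor the treatment of such reads is given in the sources used here. Over the genome, 574 genes had more than 50% of such stretches, and 297 of them (51.7%) had no row, against 18.2% of all genes. The part of repeats in the low values of these 4 genes was not tested. The other 3, hsp-16.2, hsp-16.41 and hsp-70, whose promoters are nearly all unique, were not called either, beside 1.74% of all genes called.

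The hsp-16.2 promoter shows what a classical heat shock promoter looks like next to these values. It holds 2 copies of an array of 3 alternating heat shock units, shown in capitals on the minus strand, and the summit of the shared row lies between them.
hsp-16.2, nearer the start, chrV:1805007-1805035: agcagctcGAATGTTCTAGAAaaaggtgg
hsp-16.2, farther upstream, chrV:1805161-1805189: gccttacaGAATGTTCTAGAAggtcctag
hsp-60, plus strand, chrIII:1619037-1619065: aaccaaaaGAAGCTTCGAGAAaaaaagca
The centres of the hsp-16.2 arrays lie 98 and 56 bp from the summit of the row of 23.4. The array at hsp-60, shown for comparison, lies 66 bp from the summit of the row of 139.5. An array of the same kind near the summit thus went with the highest signal of the chaperone genes and with a low one.

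Over all chaperone genes, 3-unit arrays had a higher share in promoters than over all genes, and few lay near summits. Such an array was present in the promoter of 18 of 65 (27.7%), beside 9.21% of all promoters, including all 6 hsp-16 genes, hsp-70, hsp-1, hsp-110, hsp-90, hsp-3, hsp-6 and hsp-60. The hsp-16 genes share their arrays in divergent pairs: hsp-16.2 with hsp-16.41, hsp-16.1 with hsp-16.48, and hsp-16.11 with hsp-16.49. Each gene of a pair was counted. None of the 51 strongest summits had one within 50 bp, beside 0.545% of those of all genes. So low a share means that 0 of 51 does not set the chaperone genes apart. Within 100 bp 3 had one (5.88%), beside 1.21%, namely hsp-60, and hsp-16.2 and hsp-16.41 with their shared row. At hsp-90 the arrays lay 9 and 79 bp upstream of the first start, 846 and 916 bp from the summit. At hsp-70 the array lay 67 bp upstream of the start and 240 bp from the summit.

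Single pairs of heat shock units, searched as GAANNTTC and TTCNNGAA, each its own reverse complement, lay within 50 bp of 7 of the 51 summits (13.7%), beside 11.9% for all genes. They were at hsp-90, dnj-13, dnj-10, dnj-19, dnj-17, dnj-20 and dnj-15, of which the first 2 were called. Within 100 bp the pairs were at 20 summits (39.2%), beside 23.3%. Other motifs were searched on both strands within 50 bp: CCAAT at 12 summits (23.5%, beside 20%), TATAAA at 6 (11.8%, beside 8.71%), GAGAGA at 5 (9.8%, beside 7.16%), TGACGT at 3 (5.88%, beside 3.77%), CACGTG at 1 (beside 2.43%) and TGATGCAA at none (beside 0.484%). Within 100 bp the shares lay farther apart for CCAAT (25 summits, 49%, beside 36.1%) and GAGAGA (12 summits, 23.5%, beside 13.1%), and TATAAA was below its share (7 summits, 13.7%, beside 17.6%). TGACGT was then at 6 summits (11.8%, beside 7.49%), CACGTG at 2 (3.92%, beside 4.53%) and TGATGCAA at none (beside 0.882%). A match is a description of the letters only.

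The other J-domain genes, 23 in all, are those not placed in the endoplasmic reticulum or mitochondrial class, whatever their location in the cell. They covered nearly the whole range of signals. After dnj-28, dnj-9 and dnj-13 came dnj-19 with 59.1 (30.4 in replicate 1, 28.6 in replicate 2), dnj-17 with 54.3 (16.02 and 33.5) and dnj-2 with 54.0 (21.7 and 33.9). Genes of the middle included dnj-12, a class A J-domain gene, with 36.1, and dnj-14, the cysteine string protein of synaptic vesicles, with 33.0. Toward the lower end was dnj-25 (auxilin, which uncoats clathrin vesicles) with 20.02, the lowest were dnj-3 with 14.6, dnj-22 with 8.97 and dnj-23 with 6.17, and dnj-26 and dnj-4 had no joint row. The class median was percentile 52.0, close to the middle of all genes, although 6 of the 23 genes stood above the 90th percentile.

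Among small heat shock proteins outside the hsp-16 family, hsp-25 had the highest joint signal, 44.5, with 24.6 in replicate 1 and no overlapping row in replicate 2. Its summit lay inside the gene, 171 bp upstream of an internal start and 1772 bp downstream of the most distal one. Next were hsp-43 with 34.6 and hsp-17 with 31.4. hsp-12.3 and hsp-12.6 had 28.2 and 11.6, and hsp-12.1 and hsp-12.2 had no joint row. The median percentile of the 7 genes was 51.5, but 22.3, the place of genes with no row, in replicate 1 and 65.6 in replicate 2. RefSeq gives hsp-16 symbols to another pair of genes, which Ensembl lists by sequence name and which the choice by symbol therefore left out. Of these, hsp-16.20 (F08H9.3) had a called peak of 77.2, 58 bp downstream of its start, with 29.5 in replicate 1 and 47.5 in replicate 2. By the repeat measure used for the hsp-16 promoters, 45.2% of that peak occurs more than once in the genome, beside 9.35% of the promoter. The part of repeats in the signal of hsp-16.20 was not tested. In contrast, hsp-16.21 (F08H9.4) had 30.5 and was not called.

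**Figure D2:**
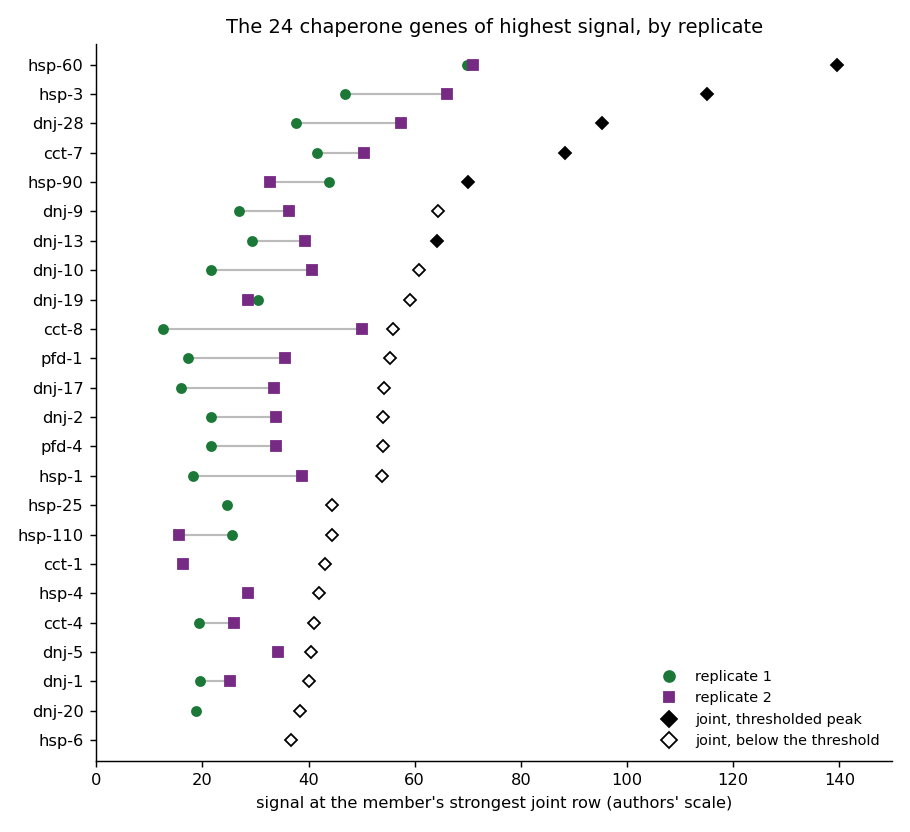
Signal (authors' scale) at the strongest joint row of the 24 chaperone genes with the highest values, with circles for replicate 1, squares for replicate 2 and diamonds for the joint list, filled for called genes. hsp-60 has nearly equal replicates (69.8 and 71.0), cct-8 the widest gap (12.6 and 50.03), and hsp-6 has no row in either replicate.

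The 51 genes with a row had 49 distinct rows, of which 22 (44.9%) overlapped a row in both replicates' lists, 9 in replicate 1 only, 11 in replicate 2 only and 7 in neither, whereas 36.8% of the 14928 rows of all genes overlapped one in both. All 6 called rows were among the 22, but the called list was itself kept by agreement between replicates. Close and distant values occurred at strong and weak rows alike, as with 12.6 and 50.03 at cct-8 and 22.8 and 22.2 at dnj-29. At these 22 rows replicate 2 was the higher in 16, and at the 5497 such rows of all genes in 65.9%, if the lists share 1 scale. Across the 22 rows the signals of the replicates had Spearman's rho of 0.40 and Pearson's r of 0.69, beside 0.26 and 0.47 across all genes. The rows share the 2 libraries and are not independent replicates. The joint signal was close to the sum of both replicates, with a median ratio of 0.973 over the 22 rows.

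Taken gene by gene from each replicate's own list, 39 chaperone genes (60%) had a row in replicate 1, beside 55.4% of all genes, and 44 (67.7%) in replicate 2, beside 59.2%. Among the 31 with a row in both, the strongest rows of both replicates overlapped in 19 (61.3%), beside 57.5% of all such genes. The replicates' own thresholded lists are short, and 1 chaperone gene was called in replicate 1 (1.54%, beside 0.215% of all genes) and 2 in replicate 2 (3.08%, beside 0.235%).

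**Figure D3:**
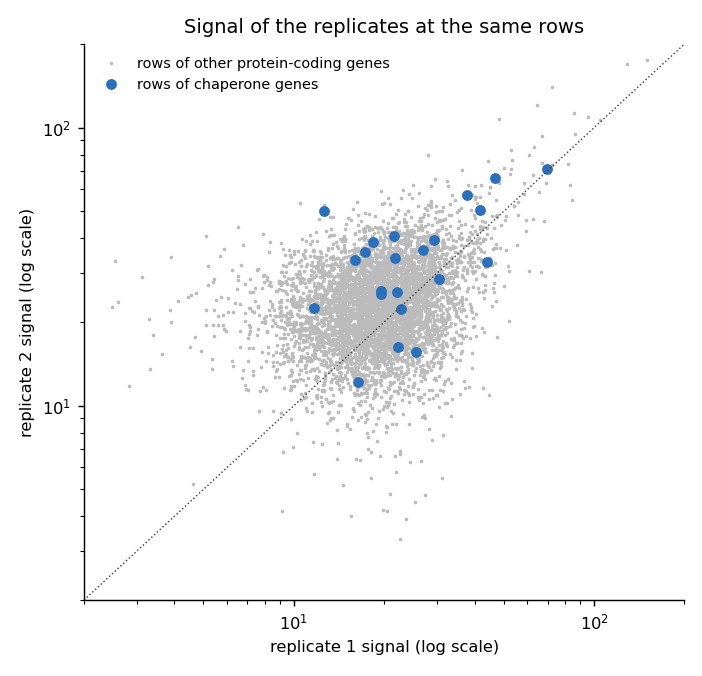
Signal in replicate 1 (x axis) against replicate 2 (y axis), authors' scale, both axes logarithmic, at rows of chaperone genes (22 blue points) and of other protein-coding genes (grey) that have a row in both replicates. The dotted line marks equal values; 16 of the 22 chaperone rows lie above it, and the called rows lie toward the upper right.

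Many chaperone rows were shared with a divergent neighbour. The strongest row lay in another coding promoter for 21 of the 51 genes (41.2%), beside 21.1% for all genes, and in each of the 21 a neighbour was transcribed the other way. The shared rows of chaperone genes had a median signal of 54.0 and the 30 unshared ones 28.6, whereas over all genes shared and unshared rows had medians of 31.4 and 31.3. Of the 6 called genes, 5 shared their row, so for these the peak cannot be given to 1 gene rather than the other. Among the uncalled genes, hsp-6 shared its row with C37H5.5, a nucleolar complex protein, cct-1 with mig-5, a dishevelled homolog, and dnj-12 with mtx-1, a metaxin.

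**Figure D4:**
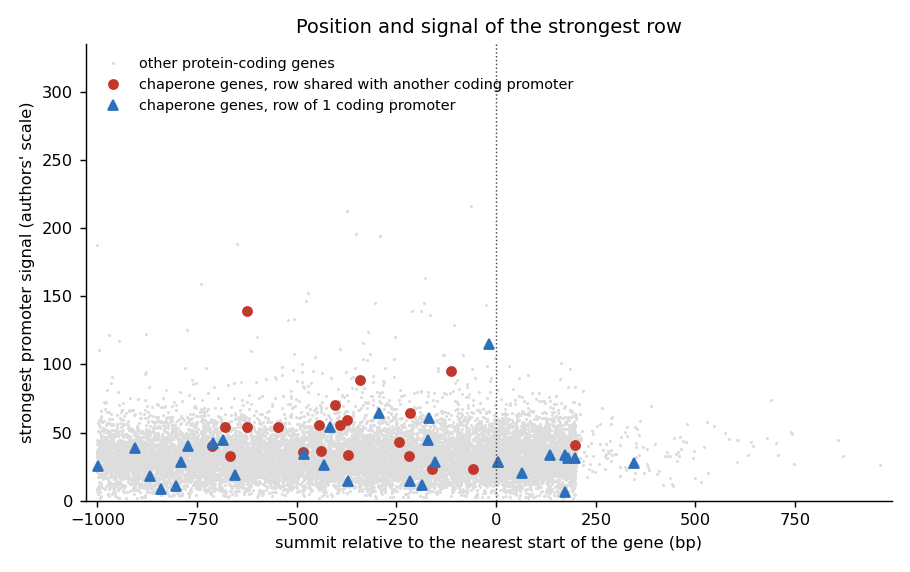
Distance of the strongest summit from the nearest start of the gene (bp, negative upstream) against signal (authors' scale), for chaperone genes whose row lies in another coding promoter (red circles), those whose row does not (blue triangles) and other protein-coding genes (grey). Chaperone summits spread over the whole window, with a median of 372 bp upstream, and 5 of the 6 called rows are red.

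In position the chaperone rows were close to those of other genes. The summit lay upstream of the nearest start in 41 of 51 genes (80.4%, beside 79.6% for all genes), within 300 bp of it in 22 (43.1%, beside 45.1%), and at a median of 372 bp upstream (350 bp for all genes). Counting the gene body as well, from 1000 bp upstream to the gene end, 8 chaperone genes (12.3%) held a conservative peak, beside 3.43% of all genes, the added ones being cct-3 and dnj-20. In 21 of the 51 chaperone genes with a promoter row, the gene span held a row stronger than the promoter's. The same share was not counted over all genes, so this does not set the chaperone genes apart. Some promoter rows had their summit in coding sequence of another gene, among them those of hsp-110, pfd-4 with dnj-2, hsp-75, dnj-17, dnj-20 and dnj-29.

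Rows of high signal tended to be rich in GC. Over the 49 distinct chaperone rows, the GC content within 50 bp of the summit and the signal had Spearman's rho of 0.50, beside 0.37 over the 14928 rows of all genes. The called chaperone rows had a median GC content of 52.5% and the uncalled ones 38.6%, close to the 51.5% and 39.6% of called and uncalled genes in general. The part of GC content in the signals was not tested.

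**Figure D5:**
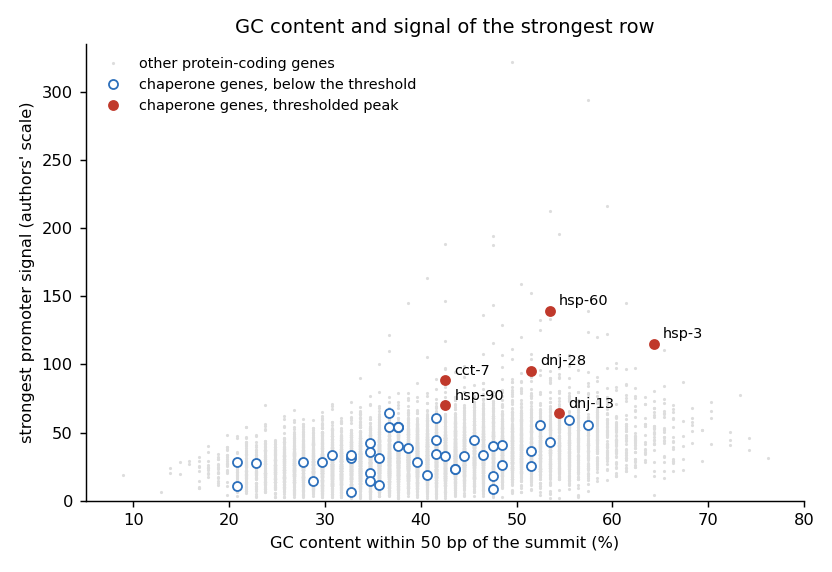
GC content (%) within 50 bp of the strongest summit against signal (authors' scale) for called chaperone genes (filled red), other chaperone genes (open blue) and other protein-coding genes (grey). hsp-3 has the highest GC content of the chaperone rows (64.4%), and cct-7 and hsp-90 the lowest of the called ones (42.6%).

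Other genes of the same folding and stress pathways were read from a list of 36 that carry other symbols. The list was chosen with earlier results of these data known, so its shares describe the listed genes and not the pathways at large. Of the 36, 33 had a row and 4 were called (11.1%, beside 1.74% of all genes), on 3 peaks, since F44E5.4 and F44E5.5 share one. The called genes were F44E5.4 and F44E5.5, a divergent pair that RefSeq annotates as HSP70, crt-1 (calreticulin) with 76.0 and pdi-1 (protein disulfide isomerase) with 67.4. xbp-1, a transcription factor of the unfolded protein response, had 74.8 (percentile 98.9), above pdi-1, but did not pass. hsf-1, the gene of heat shock factor, had 35.5 (percentile 69.0), and hsb-1, which binds HSF-1, had 43.3 (percentile 82.99). Other high values of the cytosol list were 56.1 at pph-5, a phosphatase that works with HSP90, and 55.4 at unc-23, a BAG-domain gene. No gene of the mitochondrial list was called, the highest being dve-1 with 55.9, ymel-1 with 50.7 and clpp-1 with 50.6. That list does not hold Y22D7AL.10, the neighbour of hsp-60, which was called at 139.5. The median percentile of the list was 81.3, and by compartment 83.4, 78.6 and 76.2 for cytosol, endoplasmic reticulum and mitochondria.

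The pair F44E5.4 and F44E5.5 was much higher than hsp-70 and the hsp-16 genes taken by symbol. Their shared row, chrII:11759340-11759615, had a joint signal of 136.3, the second value after hsp-60 among all genes named above, with 69.4 in replicate 1 and 63.5 in replicate 2. The summit lies 167 bp upstream of F44E5.4 and 184 bp upstream of F44E5.5. Of 36-base stretches, 76.6% of the promoter windows but 5.81% of the peak itself occur more than once. The summit with 50 bases to each side is printed because it holds an unbroken run of alternating heat shock units, in capitals, whose 3-unit arrays are centred 31, 36 and 41 bp from the summit.
F44E5.4, chrII:11759428-11759528, minus strand: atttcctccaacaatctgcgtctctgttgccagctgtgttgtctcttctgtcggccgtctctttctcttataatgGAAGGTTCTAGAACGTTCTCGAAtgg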

How the data were processed

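ChIP-seq against GFP had been done in whole young adults of 1 strain, in 2 biological replicates, on chromatin sonicated to 200 to 800 bp as the labels state. The authors deposited peak lists on ce11 without headers, made from filtered alignments and a control library per the README files deposited with the samples. Neither aligner, peak caller nor read numbers are named, and the depth is unknown. The control library was not analysed here, nor were alignments or coverage. The signal column holds the authors' value per row, of unstated scale. IDR was deposited by the authors as −log10 values. The 4 ranked lists have 32 further columns, 1 set for each input, which carry no sample name and were left out.

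Ranked lists hold 115634 (joint), 58046 (replicate 1) and 63045 (replicate 2) rows, and 115625 joint rows are 276 bp wide. All 843 conservative peaks are in the joint ranked list. Starts came from Ensembl release 115 (29784 starts). Where Ensembl gives 1 symbol to several hsp-16 genes, RefSeq names were matched by WormBase ID. Ranks placed genes with no row lowest, and overlaps needed 1 base. Neighbours are protein-coding genes whose window holds the same summit. Genes named in full are called members, the 3 highest and the lowest of each class, the main HSP genes, members with no row, and network genes at peaks or among the highest 3 of a compartment. The members, classes and lists were chosen with earlier results of these data known. No test was run, since 1 group of 2 replicates offers no comparison between groups. Alternatives were other windows, starts, lists, IDR limits, assignments and motif widths. Scripts (Python 3.11.15, numpy 2.4.6, pandas 2.3.3, scipy 1.17.1, matplotlib 3.10.9) were tested on simulated rows.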

Additional observations from a re-analysis of the deposited data

How the results depend on the processing

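No paired analysis was possible because there is 1 group only, so no groups share replicate numbers. The 6 called chaperone genes (beside 1.74% of all genes) became 12 at an IDR of at most 0.05, beside 6.71%. In the lists of single replicates they were 1 to 2, beside 0.215% and 0.235% of all genes. The median signal of 34.6 was 31.5 with the window of 500 and 100 bp, 40.3 with 2000 and 500 bp, 57.2 over rows with an IDR of at most 0.1, and 21.7 to 23.2 in single replicates. The median percentile of 59.4 was 47.1 and 54.4 with the narrow and wide windows and 58.2 to 64.5 in single replicates. Class medians moved as follows, with narrow window, wide window and 1 start per gene in this order: cytosolic HSP70, HSP90 and HSP110 96.4, 88.3 and 90.03; hsp-16 and hsp-70 18.8, 32.5 and 23.9; other J-domain genes 55.5, 51.0 and 56.3. For the endoplasmic reticulum the narrow and wide windows gave 58.9 and 54.0. The other 4 classes also moved, within spreads between replicates that were wide. In the same order, the cytosolic chaperonin had 45.04, 80.7 and 69.98, and prefoldin 18.8, 50.3 and 45.8. The mitochondrial class had 76.2, 52.3 and 75.1, and the other small heat shock proteins 43.5, 54.4 and 40.7. Leaving out genes with no row gave 71.5 for prefoldin, 26.8 for hsp-16 and hsp-70 and 55.0 for other J-domain genes, and counting shared rows once gave 15.2 for hsp-16 and hsp-70. In single replicates the medians were 90.8 to 93.5 (cytosolic HSP70, HSP90 and HSP110), 22.3 to 73.9 (chaperonin), 74.5 to 79.6 (endoplasmic reticulum), 22.3 to 57.5 (mitochondria), 20.4 to 60.01 (prefoldin), 22.3 to 65.6 (other small heat shock proteins) and 65.6 to 66.6 (other J-domain genes). Heat shock pairs, within 50 bp of 7 summits, were within 100 bp of 20 (39.2%, beside 23.3% of all genes) and in 60 whole promoters (92.3%, beside 82.7%), and 3-unit arrays were within 50 bp of 0, beside 0.545% of all genes. The cause of these shifts was not tested. Among the remaining values, which also stayed within the spread between replicates or within 1.5 times the count, the called genes themselves changed. With the narrow window 5 were called (without hsp-60), beside 1.02% of all genes. With 1 start per gene 5 were called (without hsp-90), beside 1.51%. The wide window gave 7 (with cct-3), beside 2.8%. The upper 50% of the list by signal gave 4 (without hsp-90 and dnj-13), beside 1.02%. By nearest start 5 were called (without hsp-60, cct-7 and hsp-90, with cct-3 and dnj-20), beside 1.92%. With 2 replicates and unknown depth, a missing row does not show that a promoter was free of the protein.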
